A study of Mus musculus with 57 samples.

Results

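The 42 genes described here encode the machinery that copies DNA, from the proteins that mark and license origins to the histone chaperone behind the fork. They were chosen by gene symbol, all 42 were found among the 21118 genes of the deposited count table, and all 42 passed the filter on low counts, which kept 19793 genes. The study profiled cortical astroglia of mice of both sexes over postnatal development with TRAP, the affinity purification of tagged translating ribosomes. All mice had the genotype Aldh1l1-L10-GFP on a C57BL/6 background: a ribosomal protein fused to green fluorescent protein is made under control of Aldh1l1, a gene of astrocytes that neural progenitors also express, and an antibody to the fluorescent protein then pulls ribosomes and their messages out of a homogenate of whole cortex. All groups carried this transgene, and the labels set the groups apart by age and sex alone. Of the 53 libraries 8 came from postnatal day 1 (P1), 8 from P4, 12 from P7, 10 from P14, 6 from P35 and 9 from adults, each from its own animal, and with the sexes pooled they form the 6 age groups compared below. At P7, 4 of the 12 libraries come from a second sequencing run alone and form a set of their own (set S) that no other age shares. With the set as a block they add to the estimate of spread but not to any change between ages. Fitted changes at P7 thus rest on the other 8, while printed P7 levels include all 12. Of these 8, P7 female 10, P7 male 2, P7 male 6 and P7 female 6 were sequenced in both runs, as no animal of another age was. Their totals lay between 42222297 and 48541139 counts. The block does not remove an effect of the second run in them, which cannot be told apart from age.

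Replication is prepared in the G1 phase of the cell cycle, when the origin recognition complex, CDC6 and CDT1 load the ring-shaped MCM helicase onto DNA. In S phase CDC45 and the GINS complex activate the ring, primase and DNA polymerase alpha lay down primers, polymerases delta and epsilon extend them on the PCNA clamp, and flap cutting and ligation join the fragments. Many of these genes are transcribed under E2F factors when a cell commits to divide, and in rodent cortex astrocytes divide locally around birth and in the early postnatal weeks. TRAP from whole tissue gives ribosome-bound RNA summed over cells, so fewer dividing cells and less RNA per cell cannot be told apart in what follows.

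Library totals ran from 14768178 to 48541139 counts, with a median of 24033399. Levels are given as CPM, the share of a library's counts as edgeR gives it after TMM scaling. Changes are log2 changes with their standard error from an edgeR model of age with the replicate set as a block. The set is the first character of the number or code that ends a library's name. P7 female 10 and P35 male 10 were thus put in set 1, P7 female 30 in set 3, P7 female 40 in set 4 and adult male 60 in set 6. A gene is called changed at a Benjamini-Hochberg adjusted p under 0.05 over all 19793 genes. Of the 69 marker genes checked, each had a median above 0 at every age. The summed level of the 12 mature astrocyte markers was 1993 ± 1552 CPM (SD, n = 8) at P1 and 14725 ± 6414 CPM (n = 9) in adults. Neuronal markers were present throughout, and the balance of these sums differed between libraries. Adult male 1 (set 1) had 17518 CPM of astrocyte and 3020 CPM of neuronal markers, while adult male 60 (set 6) had 3696 and 10347 CPM. P1 female 1 (set 1) had 4932 and 1036 CPM, while P1 female 6 (set 6) had 621 and 4705 CPM. The part of this balance in the changes below was not tested. 3 libraries had few genes with 10 or more counts: P1 female 4 had 10085 where the other 7 P1 libraries had at least 16562, P7 female 40 had 13834 and P14 male 4 had 14530. In P1 female 4, 14 of the 42 replication genes had no count, 26 were the lowest of all P1 libraries and 8 the highest. Markers went against the labelled age in another pair. The library labelled P7 male 6 had a myelin marker sum of 2858 CPM against 232 to 614 in the other 11 P7 libraries, and the library labelled P14 male 6 had 316 CPM against 622 to 2408 in the other 9, with young neuron markers at 2772 CPM against 275 to 884. Counts of calls, timing and sex differences below are given with and without these libraries where they move.

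The summed level of the 42 genes was lower at each later age up to P35. In the 8 P1 libraries it was 1321 ± 270 CPM (SD), in the 8 of P4 1285 ± 207 CPM, in the 12 of P7 889 ± 110 CPM and in the 10 of P14 705 ± 101 CPM. The later groups had 583 ± 87.0 CPM (n = 6) in P35 mice and 636 ± 40.3 CPM (n = 9) in adults. The lowest P1 library, P1 female 6 with 938 CPM, lay above the highest adult library with 683 CPM, so the sums of the 2 ages did not overlap. From P1 to adult 35 of the 42 genes fell and 1, Rfc1, rose; of all 19793 genes 21.2% fell and 23.1% rose. The median log2 change of the 42 genes was -1.67, beside 0.05 over all genes. Without P1 female 4 and the other 4 doubted libraries 37 fell and 1 rose, where 26.3% of all genes fell. In 7 genes (Mcm6, Prim1, Pole, Rfc3, Rfc4, Lig1 and Chaf1b) every P1 library lay above every adult library, as in 2.87% of all genes, and without P1 female 4 this was so for 24 of the 42, as in 5.64% of all genes. The 6 that did not pass were Orc6, Mcm8, Gins4, Pold2, Rpa1 and Tipin.

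**Figure D1:**
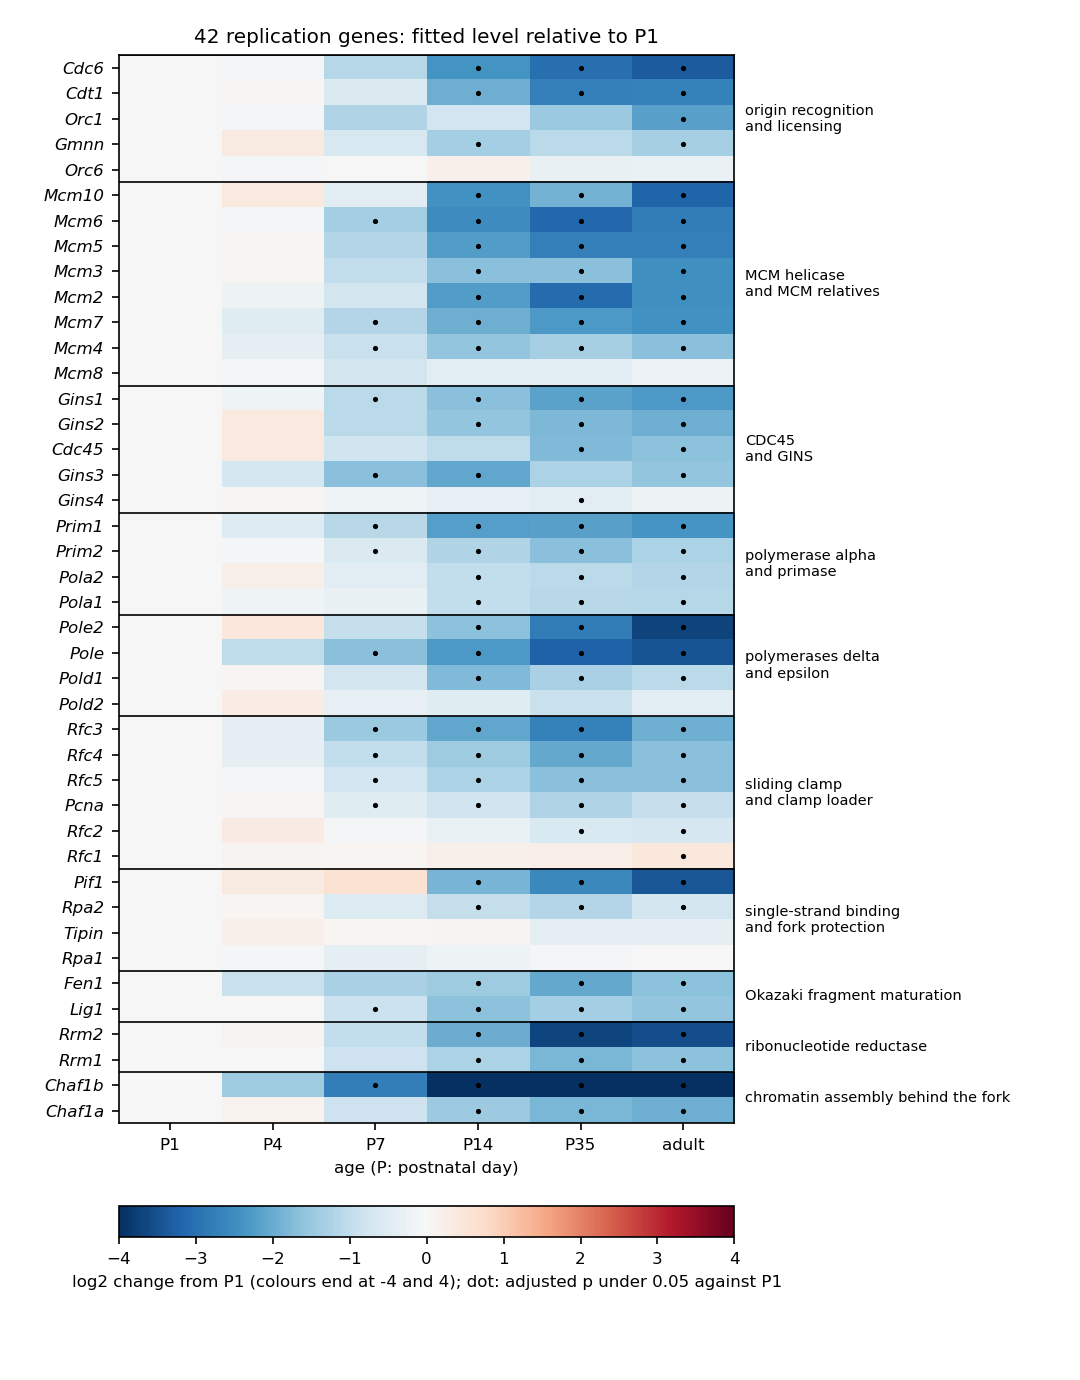
Fitted log2 change of each of the 42 replication genes from P1 (columns: the 6 ages; rows: genes grouped by role; blue below P1, red above; a dot marks an adjusted p under 0.05 against P1). In adults 35 rows carry a dot on blue, while Rfc1 ends at 0.41 above P1 and Orc6, Mcm8, Gins4, Pold2, Rpa1 and Tipin carry no dot in adults.

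Origin recognition and licensing held 5 genes, of which 4 fell. Cdt1, whose protein brings the MCM ring to origins, measured 0.273 CPM in the lowest, 9.78 in the median and 24.5 in the highest P1 library, 1.91, 4.91 and 17.5 CPM at P7, 0.491, 2.40 and 6.06 CPM at P14, and 0.624, 1.51 and 2.95 CPM in adults. Only P1 female 4 reached down into the adult range. The log2 change from P1 to adult was -2.70 ± 0.44 (adjusted p = 2.11e-06), which left 15.4% of the P1 level. Cdc6, the ATPase that loads the ring together with the origin recognition complex, was at 0 in P1 female 4 and otherwise low at every age, with a median of 4.04 CPM at P1 and 0.054 CPM in adults (log2 change -3.33 ± 0.84, adjusted p = 0.00114). Orc1, the ATPase subunit of the origin recognition complex, fell by 2.18 ± 0.62 on the log2 scale (adjusted p = 0.00349) from a median of 1.81 CPM. Geminin (Gmnn), which binds CDT1 and keeps origins from being licensed again, fell by 1.32 ± 0.42 (adjusted p = 0.00819). Orc6, the smallest subunit of the origin complex, had a median of 67.7 CPM at P1 (46.7 to 94.1 CPM) and 65.5 CPM in adults (35.5 to 72.8 CPM), and these ranges overlapped over most of their width. Its log2 change of -0.25 ± 0.14 did not pass (adjusted p = 0.145).

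Of 8 MCM genes, 7 fell. All 6 subunits of the MCM2-7 ring fell, as did Mcm10, a factor that helps to start the helicase. Mcm7 measured 1.70 CPM in the lowest, 66.9 in the median and 81.2 in the highest P1 library, 11.1, 26.8 and 37.95 CPM at P7, 9.04, 14.2 and 20.9 CPM at P14, and 6.85, 10.9 and 15.8 CPM in adults. The 1.70 CPM belonged to P1 female 4, and the other 7 P1 libraries started at 42.6 CPM, above every P7, P14 and adult library. The log2 change of Mcm7 was -2.42 ± 0.28 (adjusted p = 1.45e-09). Mcm6 had 20.1, 44.1 and 79.8 CPM at P1 against 2.54, 6.81 and 14.1 CPM in adults, with no overlap and a log2 change of -2.80 ± 0.34 (adjusted p = 2.54e-09). The other ring subunits fell by 1.67 (Mcm4), 2.45 (Mcm2), 2.46 (Mcm3) and 2.75 (Mcm5) on the log2 scale, and Mcm10 by 3.19 ± 0.61 (adjusted p = 3.07e-05) from a median of 3.15 CPM. Mcm8 is a relative of the ring subunits known for recombination repair. It had a median of 5.24 CPM at P1 and 4.27 CPM in adults, and its log2 change of -0.24 ± 0.50 did not pass (adjusted p = 0.725).

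**Figure D2:**
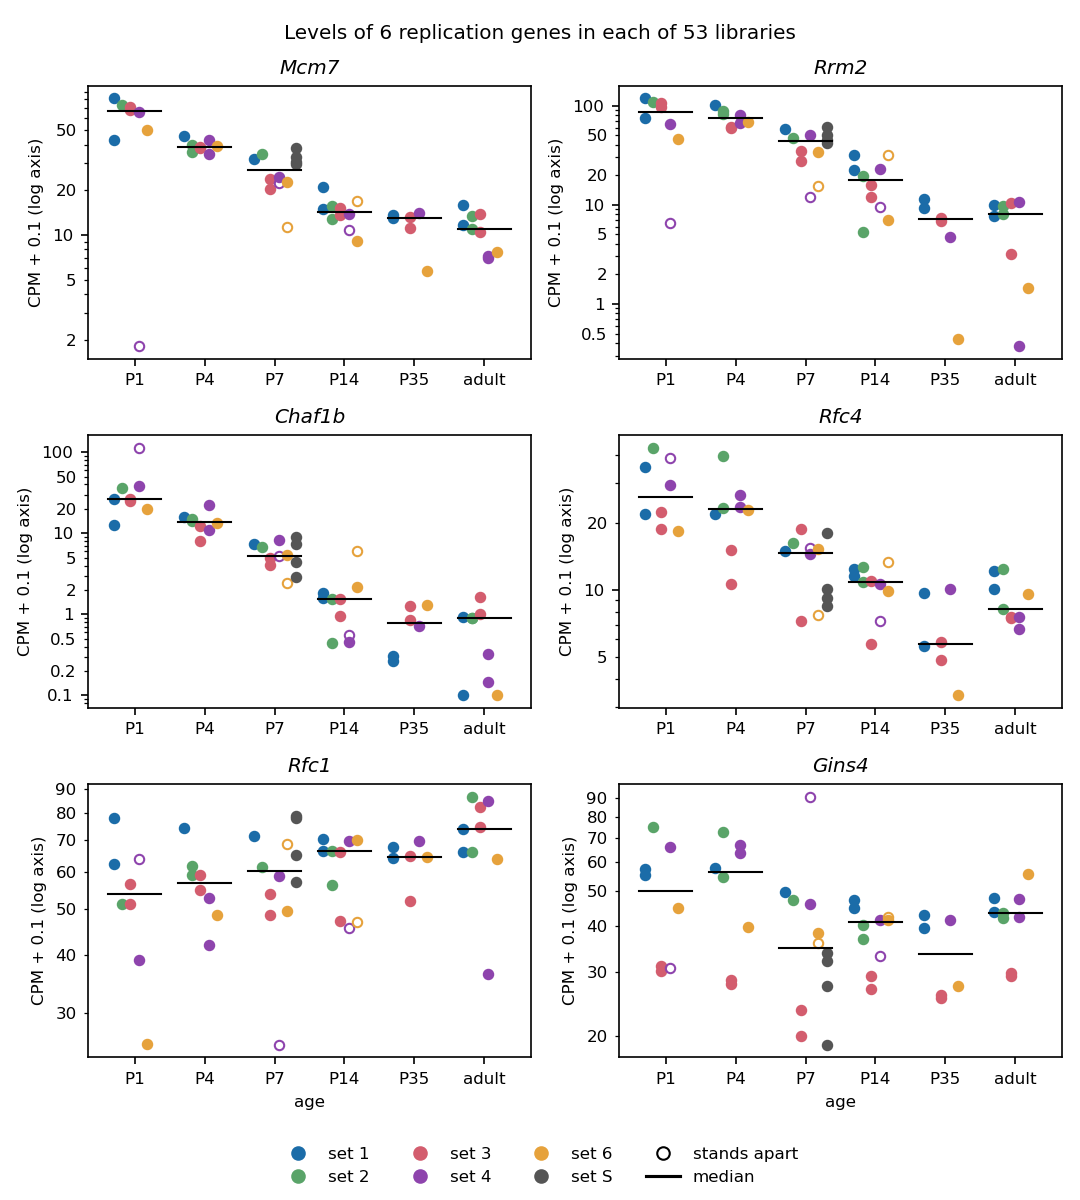
Level in each of the 53 libraries of 6 replication genes by age (log axis, CPM + 0.1; colour: replicate set; open circles: the 5 libraries that stand apart; bars: medians). Mcm7, Rrm2, Chaf1b and Rfc4 step down from P4 to P14, Rfc1 and Gins4 overlap between P1 and adult over most of their range.

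Per kilobase of exon the ring subunits can be set side by side, here with the exon lengths of GENCODE's basic transcripts. The means of the 6 subunits ran from 6.31 (Mcm3) to 19.1 (Mcm7) CPM per kilobase at P1 and from 1.10 (Mcm3) to 3.64 (Mcm7) CPM per kilobase in adults. The highest was 3.03 times the lowest at P1 and 3.30 times in adults. Mcm7 was the highest of the 6 at each age with these lengths. With the exons of all annotated transcripts it was the highest at each age except P35, where Mcm4 was (3.13 CPM per kilobase), Mcm2 was the lowest throughout, and the highest was 3.797 times the lowest at P1 and 3.98 times in adults. With the basic lengths Mcm6 went from 10.8 to 1.54 and Mcm5 from 7.75 to 1.15 CPM per kilobase.

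**Figure D3:**
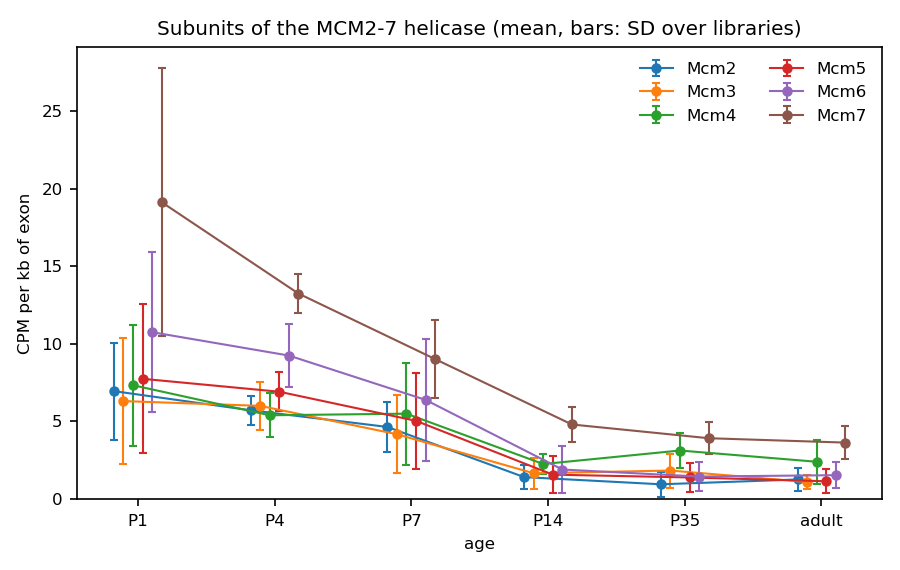
Mean level of the 6 subunits of the MCM2-7 helicase in CPM per kilobase of basic-transcript exon at each age (bars: SD over 8, 8, 12, 10, 6 and 9 libraries). Mcm7 runs from 19.1 at P1 to 3.64 in adults, and the other 5 subunits lie between 6.31 and 10.8 at P1 and between 1.10 and 2.40 in adults.

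CDC45 and GINS join the MCM ring to make the active helicase. Gins1 measured 0.409 CPM in the lowest, 13.6 in the median and 25.6 in the highest P1 library, and 1.37, 3.14 and 6.05 CPM in adults. P1 female 4 was again the low P1 library, and the other 7 lay above all adults. Its log2 change was -2.30 ± 0.39 (adjusted p = 3.14e-06). Gins2 fell by 1.95 ± 0.43 and Cdc45 by 1.65 ± 0.47 on the log2 scale (adjusted p = 0.000251 and 0.00389). Gins3 fell by 1.59 ± 0.50 (adjusted p = 0.00823), a value that rests in part on 66.9 CPM in P1 female 4 beside a P1 median of 9.09 CPM: without that library the log2 change was -0.66 and did not pass (adjusted p = 0.169). Gins4 had 30.1, 49.98 and 75.1 CPM at P1 and 29.2, 43.5 and 55.6 CPM in adults, overlapping throughout, with a log2 change of -0.20 ± 0.15 (adjusted p = 0.308). With all libraries Gins4 passed against P1 at P35 only, and without the 5 doubted libraries its adult change of -0.31 passed (adjusted p = 0.0292).

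All 4 genes of polymerase alpha and primase fell. Prim2, the larger primase subunit, measured 12.6 CPM in the lowest, 23.9 in the median and 34.9 in the highest P1 library, 12.2, 15.0 and 25.0 CPM at P7, 6.82, 9.93 and 16.6 CPM at P14, and 8.08, 9.48 and 15.4 CPM in adults. The adult range met only the low end of the P1 range. Its log2 change was -1.26 ± 0.19 (adjusted p = 3.84e-07). Prim1, the subunit that makes the RNA primer, fell by 2.36 ± 0.37 on the log2 scale (adjusted p = 1.13e-06), with 21.5 CPM in the lowest P1 and 10.4 CPM in the highest adult library. The polymerase subunits Pola1 and Pola2 fell by less, by 1.13 ± 0.40 and 1.19 ± 0.24 (adjusted p = 0.0185 and 8.74e-05).

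Of the 4 genes of polymerases delta and epsilon 3 fell, the epsilon genes with the larger fitted changes. Pole, the catalytic subunit of the leading strand enzyme, measured 1.70 CPM in the lowest, 5.13 in the median and 25.7 in the highest P1 library, 0.951, 2.15 and 5.70 CPM at P7, 0, 1.34 and 3.13 CPM at P14, and 0.267, 0.540 and 1.01 CPM in adults. Every P1 library lay above every adult one. The log2 change was -3.46 ± 0.59 (adjusted p = 4.42e-06), and it was -2.73 without P1 female 4, which held the 25.7 CPM. Its partner Pole2, the second subunit of that enzyme, fell by 3.71 ± 0.68 (adjusted p = 1.35e-05), from a P1 median of 4.74 CPM (0 to 7.08 CPM) to an adult median of 0.310 CPM (0 to 1.13 CPM). Pold1, the catalytic subunit of polymerase delta, fell by 1.09 ± 0.39 (adjusted p = 0.0202). Its accessory subunit Pold2 had a median of 47.2 CPM at P1 (0 to 66.4 CPM) and 29.0 CPM in adults (17.7 to 68.4 CPM), with a log2 change of -0.44 ± 0.36 (adjusted p = 0.335). The 0 was in P1 female 4, and without the 5 doubted libraries the change of Pold2 was -0.68 (adjusted p = 0.000461).

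Of the clamp and its loader 5 of 6 genes fell and 1 rose. Pcna, the sliding clamp, had 39.8, 116 and 151 CPM at P1 and 43.5, 53.4 and 71.4 CPM in adults, and fell by 0.93 ± 0.15 on the log2 scale (adjusted p = 1.23e-06). Rfc4, a small subunit of the loader, measured 18.3 CPM in the lowest, 25.8 in the median and 43.2 in the highest P1 library, 7.14, 14.6 and 18.6 CPM at P7, 5.66, 10.8 and 13.2 CPM at P14, and 6.58, 8.11 and 12.3 CPM in adults. P1 and adult did not overlap. Its log2 change was -1.67 ± 0.22 (adjusted p = 1.69e-08). The small subunits Rfc3 (-1.96 ± 0.27), Rfc5 (-1.66 ± 0.24) and Rfc2 (-0.67 ± 0.12) fell too, with adjusted p of 6.56e-08, 1.32e-07 and 9.13e-06. Rfc1, the large subunit that makes the loader specific for PCNA, went the other way: 25.7, 53.8 and 78.1 CPM at P1 and 36.3, 74.1 and 86.5 CPM in adults, which overlapped widely, with a log2 change of 0.41 ± 0.16 (adjusted p = 0.0326). The rise of Rfc1 did not pass without the replicate block (log2 change 0.40).

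Of the 4 genes for single-strand binding and fork protection, 2 fell. Pif1, a helicase that unwinds structured DNA, measured 0, 2.73 and 5.98 CPM at P1, 0.600, 1.97 and 26.5 CPM at P7, 0, 0.458 and 2.27 CPM at P14, and 0, 0.222 and 1.04 CPM in adults. The 26.5 CPM was in P7 female 40, one of the libraries of few genes, and the next P7 library had 3.93 CPM. Its log2 change from P1 to adult was -3.42 ± 0.77 (adjusted p = 0.000294). Rpa2, a subunit of the protein that coats single-stranded DNA, fell by 0.75 ± 0.26 (adjusted p = 0.0187). The large subunit Rpa1 had a median of 53.3 CPM at P1 (23.3 to 155 CPM) and 63.1 CPM in adults (36.9 to 65.4 CPM), with a log2 change of 0.00 ± 0.19 (adjusted p = 0.990). The 155 CPM was in P1 female 4, and without that library the change of Rpa1 was 0.33 and did not pass (edgeR, adjusted p = 0.0594). Tipin, the partner of TIMELESS at the fork, had 31.0, 71.7 and 116 CPM at P1 and 27.2, 69.1 and 79.9 CPM in adults, with a log2 change of -0.36 ± 0.23 (adjusted p = 0.197).

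Maturation of Okazaki fragments was represented by Lig1 and Fen1. Lig1, the ligase that seals them, measured 13.1 CPM in the lowest, 22.3 in the median and 35.2 in the highest P1 library, 1.21, 15.8 and 22.3 CPM at P7, 3.92, 6.87 and 19.96 CPM at P14, and 4.00, 8.23 and 11.4 CPM in adults, again with no overlap of P1 and adult. Its log2 change was -1.57 ± 0.28 (adjusted p = 9.75e-06). Fen1, the flap endonuclease, is uncertain: its values were 0.612 CPM in the median P1 and 0.310 CPM in the median adult library, and 84.2% of its exon bases lie under exons of other genes in GENCODE M21, mostly Gm10143 on the other strand. Its log2 change of -1.64 ± 0.54 (adjusted p = 0.0111) was -0.88 and did not pass (adjusted p = 0.0834) without the 5 doubted libraries, and -0.84 (adjusted p = 0.157) without P1 female 4 alone. Shared exons also touch Gins2, with 67.3% of exon bases shared with Gse1, and Chaf1a, with 52.5% shared with Ubxn6. In 11 other genes of the 42 the shared part was 15.1% or less, and Pcna has 2 named pseudogenes; whether the counting used the strand is not given in the sources used here, so reads of such pairs cannot be told apart.

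Both subunits of ribonucleotide reductase, which makes deoxynucleotides, fell. Rrm2, the subunit known to be limited to S phase, measured 6.47 CPM in the lowest, 85.6 in the median and 118 in the highest P1 library, 11.9, 43.5 and 61.2 CPM at P7, 5.20, 17.7 and 31.9 CPM at P14, 0.344, 6.99 and 11.3 CPM at P35, and 0.272, 7.88 and 10.5 CPM in adults. Without P1 female 4, which held the 6.47 CPM, the lowest P1 library had 45.6 CPM, above every P14, P35 and adult library. The log2 change was -3.56 ± 0.45 (adjusted p = 8.45e-09). Rrm1, the catalytic subunit, fell by 1.63 ± 0.39 (adjusted p = 0.000661). Per kilobase of basic-transcript exon Rrm2 stood at 35.3 ± 17.2 CPM at P1 (SD, n = 8) where Rrm1 stood at 10.2 ± 6.75 CPM, and in adults the pair were at 3.05 ± 1.85 and 3.03 ± 1.503 CPM (n = 9). How the pair compare depends on the length used: with the exons of all transcripts, 2771 bases for Rrm2 and 11012 for Rrm1, they were at 28.0 and 3.72 CPM per kilobase at P1 and at 2.42 and 1.10 in adults.

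Chromatin assembly factor 1 places histones on the new DNA, and its middle subunit Chaf1b showed the largest fall of the 42. Chaf1b measured 12.7 CPM in the lowest, 26.7 in the median and 114 in the highest P1 library, 8.03, 13.6 and 22.3 CPM at P4, 2.37, 5.20 and 9.00 CPM at P7, 0.343, 1.43 and 6.01 CPM at P14, 0.165, 0.688 and 1.20 CPM at P35, and 0, 0.802 and 1.55 CPM in adults. The highest P1 value was in P1 female 4 and the highest P14 value in P14 male 6. The P1 libraries did not overlap with those of P7 or of adults. The log2 change was -5.98 ± 0.63 (adjusted p = 8.92e-11), which left 1.58% of the P1 level, and it was -5.60 without the 5 doubted libraries. Chaf1a, the large subunit, fell by 1.94 ± 0.57 (adjusted p = 0.00458).

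The steps between neighbouring ages were tested one by one. From P1 to P4 none of the 42 genes was called by edgeR, DESeq2 or voom, where 0.333% of all genes fell and 0.354% rose; at an unadjusted p under 0.05 edgeR had Chaf1b lower and Rfc2 higher. With all libraries 20 of the 42 changes were below 0 in that step with a median of 0.01 on the log2 scale; without P1 female 4 it was 29 with a median of -0.11. Without it Mcm7 passed from P1 to P4 (-0.68, adjusted p = 0.0342). From P4 to P7 only Rfc3 passed with all libraries (-1.08 ± 0.28, adjusted p = 0.0446), where 0.202% of all genes fell and 0.546% rose, although 40 of the 42 changes were below 0 with a median of -0.69. The single call is easily lost: it was made in none of the 42 genes when any of 27 of the 53 libraries was left out, nor without the replicate block. Leaving out P1 female 4 raised the count to 10, where 0.854% of all genes fell: Gmnn, Mcm6, Mcm7, Gins2, Pola2, Pold2, Pcna, Rfc2, Rfc3 and Rpa2.

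Over the whole first week, P1 to P7, 14 of the 42 genes fell, where 6.52% of all genes fell and 8.35% rose. Their median change was -0.81 (log2, all 42). They were Mcm4, Mcm6, Mcm7, Gins1, Gins3, Prim1, Prim2, Pole, Rfc3, Rfc4, Rfc5, Pcna, Lig1 and Chaf1b. In Rfc3 and Chaf1b every P1 library lay above every P7 library, as in 0.131% of all genes. Rfc3 had 29.1, 44.0 and 62.6 CPM at P1 and 3.75, 16.6 and 22.9 CPM at P7, a log2 change of -1.48 ± 0.28 (adjusted p = 0.000156) and the smallest p of the 42 in this step. No licensing gene was among the 14, nor were Rrm1 and Rrm2. Without the 5 doubted libraries 20 fell, where 5.81% of all genes did, and Cdt1, Gmnn and Rrm1 were then among them while Mcm4, Gins3 and Pole were not. Leaving out P1 male 1 or P7 male 6 lowered the count to 8, leaving out P7 female 10, P1 male 3, P7 male 2, P7 female 3 or P1 female 3 to 9, and leaving out P1 female 4 raised it to 19, where 6.46% of all genes fell. Without the replicate block it was 9. The share of all genes is not given for the settings without it, so those counts alone do not show a change particular to the 42.

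From P7 to P14 a further 8 calls were made, where 3.15% of all genes fell and 4.19% rose (median of all 42: -0.61 on the log2 scale): Cdt1 (-1.37 ± 0.42), Mcm2 (-1.49 ± 0.37), Mcm6 (-1.15 ± 0.32), Mcm10 (-1.997 ± 0.59), Prim1 (-1.11 ± 0.35), Prim2 (-0.61 ± 0.18), Pif1 (-2.48 ± 0.75) and Chaf1b (-1.79 ± 0.52). The highest P7 value of Pif1 was in P7 female 40, a library of few genes. The count of calls moved with the libraries used. It was 28, where 11.1% of all genes fell, without the 5 doubted libraries, and it then took in Mcm3, Mcm5 and Mcm7, Rfc3, Rfc4 and Rfc5, Lig1, Rrm1 and Rrm2. In that set the levels of Cdc6, Mcm2, Mcm5, Mcm6, Prim1, Rfc3 and Chaf1b did not overlap between P7 and P14, as in 1.09% of all genes, where with all libraries none of the 42 was free of overlap (0% of all genes). Mcm6 then had 15.8, 31.2 and 59.9 CPM in 10 P7 libraries and 3.38, 5.75 and 12.5 CPM in 8 P14 libraries. Leaving out P14 male 6 alone gave 15 calls and P1 female 4 alone 13, where 5.91% of all genes fell, while leaving out P14 female 2, 3 or 4 or P14 male 4 gave 3, P7 male 2 or P7 female 4 gave 4, and P14 male 1, P14 female 1 or P7 female 40 gave 5. Without the replicate block it was 15. Where no share of all genes stands beside a count here, the count alone does not show a change particular to the 42.

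**Figure D4:**
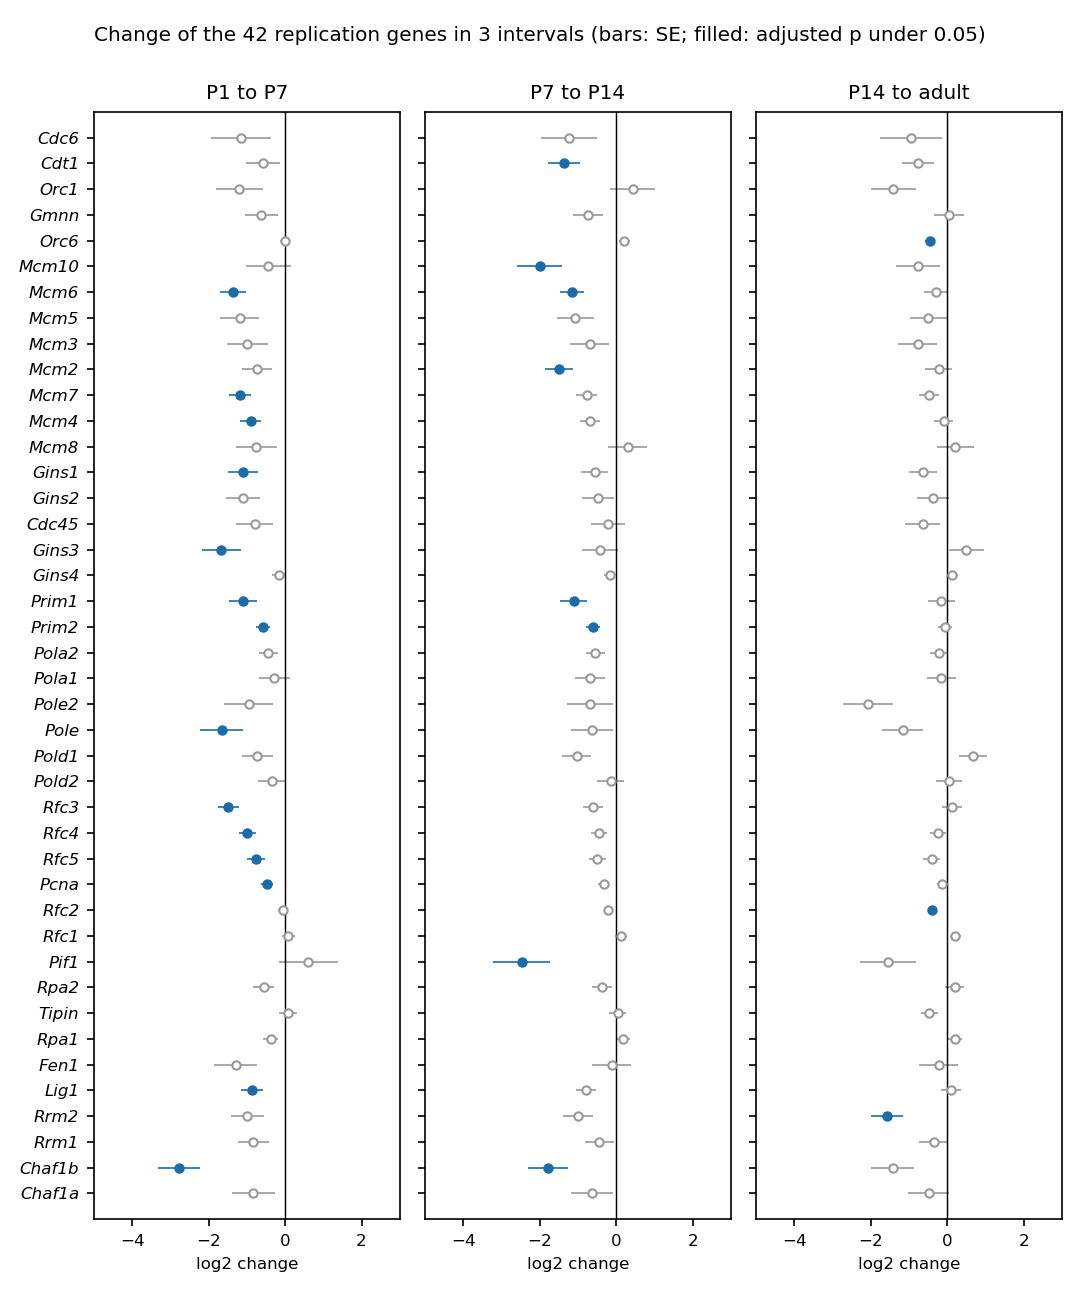
Log2 change of each of the 42 genes over P1 to P7, P7 to P14 and P14 to adult (points: fitted change; bars: SE; filled: adjusted p under 0.05). There are 14 filled points to the left of 0 in the first panel, 8 in the second and 3 in the last.

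After P14 little further change was called. Over P14 to P35, and over P35 to adult, edgeR called none of the 42, where 1.07% and 0% of all genes fell; at an unadjusted p under 0.05 there were 9 lower from P14 to P35 (1 called by DESeq2, 0 by voom) and 1 higher, Rfc3, from P35 to adult (0 called by DESeq2 or voom). From P14 to adult 3 fell, where 2.53% of all genes fell and 1.38% rose: Rrm2 (-1.57 ± 0.42, adjusted p = 0.0210), Rfc2 (-0.40 ± 0.11, adjusted p = 0.0352) and Orc6 (-0.46 ± 0.13, adjusted p = 0.0360); without the replicate block there were 0. Without the 5 doubted libraries 5 fell, where 4.45% of all genes did, namely these with Pole2 (-1.64) and Tipin (-0.61), and Pold1 (0.94) and Rpa2 (0.38) rose. Without P1 female 4 alone 5 fell, where 4.69% of all genes did. Against P1, 32 of the 42 were lower by P14, where 17.1% of all genes were, and 33 by P35, where 18.6% were.

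Read as a share of the log2 fall from P1 to adult, the 35 genes that fell had made a median of -0.03% by P4, 47.4% by P7, 80.7% by P14 and 94.6% by P35. Without P1 female 4 the medians were 6.66%, 48.9%, 81.7% and 95.8%, and without all 5 doubted libraries 7.56%, 37.8%, 86.3% and 95.2%. The age by which at least 50% of the fall had been made also moved with these libraries. With all of them it was P4 in 1 gene (Fen1), P7 in 11, P14 in 21 and P35 in 2 (Pole2 and Rfc2). Without P1 female 4 it was P4 in none, P7 in 17, P14 in 16 and P35 in the same 2, with Fen1, Gmnn, Mcm7, Cdc45, Gins1, Prim2 and Rfc5 then at P7 and Mcm4 at P14. Without the 5 it was P7 in 10 and P14 in 25. Orc1, Gins3, Pold1, Pcna, Rfc3, Rfc4 and Rpa2 were at P7 in all 3 readings. Orc1 did not stay past 50%: with all libraries it had made 54.8% by P7 but 35.1% by P14, and it passed against P1 in adults only. Without the 5 its shares were 51.7% by P7 and 62.5% by P14. Gins3 did not stay past 50% either when libraries were left out. Without P1 female 4 its shares were 106% by P7, 184% by P14 and 49.4% by P35. Without the 5 they were 86.6%, 167% and 47.8%. The fall of Gins3 did not pass without P1 female 4 (edgeR, adjusted p = 0.169), so its shares there are shares of an uncertain fall. Rfc3 had made 75.5% by P7 with all libraries, Cdt1 21.1% and Mcm10 13.7%, and Rrm2 had made 55.9% by P14 and 103% by P35. These shares are descriptions, and no test compared the genes with each other. A test within each gene, whether its change from P7 to P14 differed from that from P1 to P7, called none of the 42 in edgeR, DESeq2 or voom, where 0.445% of all genes were called lower and 0.152% higher; at an unadjusted p under 0.05 it had Pif1 alone in edgeR (-3.09 ± 1.30).

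The replicate sets gave separate readings of the fall from P1 to adult, each from 1 or 2 libraries per age. Each is a difference of log2 CPM, averaged where there were 2 libraries, with no test. In set 1 (2 P1 and 2 adult libraries) 40 of the 42 genes were lower in adults (median -1.97). Set 2 (1 and 2) also had 40 lower (median -2.01), set 3 (2 and 2) 39 (median -1.70) and set 6 (1 and 1) 38 (median -0.99). Medians over all genes in these sets were 0, 0.01, 0.02 and -0.09. Set 4, whose 2 P1 libraries include P1 female 4, had 27 lower with a median of -0.32, while its median over all genes was 0.61. From P7 to P14 set 6, which holds the libraries labelled P7 male 6 and P14 male 6, had 19 of 42 lower (median 0.04), where sets 1 to 4 had 28 to 39 lower. Sets 1 and 2 had 1 P7 library each. From P1 to P7 sets 1, 2 and 3 had 41, 40 and 40 of 42 lower, and set 6 had 30 (median -0.59). Set 4 had 18 lower over that week with a median of 0.13, while its median over all genes was 0.24.

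A further 57 genes of replication and its control were taken from a list that holds none of the 42: 35 fell from P1 to adult, 5 rose, and the median log2 change was -1.09, where 21.2% of all genes fell and 23.1% rose (median 0.05). The largest falls were in genes that act around S phase and mitosis: E2f7 (-5.82 ± 0.93), an E2F repressor, Ticrr (-5.13 ± 1.02), a factor for firing origins, Ccna2 (-5.11 ± 0.53), the S phase cyclin A2, Tk1 (-4.89 ± 0.47), thymidine kinase, Uhrf1 (-4.52 ± 0.68), which directs maintenance methylation at the fork, Top2a (-4.11 ± 0.53), the topoisomerase of dividing cells, Dbf4 (-4.10 ± 0.50), activator of the origin-firing kinase CDC7, and E2f8 (-3.83 ± 0.89), another E2F repressor. Ticrr had no count in the median adult library, so the size of its fitted change depends on the prior count. Tk1 had 10.8, 19.4 and 30.6 CPM at P1 and 0, 0.726 and 1.30 CPM in adults. The origin subunits Orc2, Orc3, Orc4 and Orc5 did not pass, like Orc6 and unlike Orc1. Of the chromatin and methylation factors of the fork all 6 fell, of the firing factors 6 of 13, of the other fork proteins 11 of 16, of the nucleotide supply 5 of 7, and of the E2F, RB and cyclin genes 7 of 15. The 5 that rose were the small polymerase subunits Pold4 (1.05 ± 0.20) and Pole4 (0.45 ± 0.16), Rrm2b (0.98 ± 0.20), the reductase subunit known from cells outside S phase, E2f3 (0.77 ± 0.32), an E2F activator, and Rbl2 (0.61 ± 0.21), the RB relative p130 known from resting cells. Rrm2b went from 7.97, 16.7 and 22.5 CPM at P1 to 21.3, 30.8 and 61.7 CPM in adults, the opposite of Rrm2 in the same libraries.

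Markers of other cells moved over the same ages. The summed level of 8 radial glia and neural progenitor markers was 12584 ± 7827 CPM (SD, n = 8; 3760 to 21227) at P1 and 1819 ± 927 CPM (n = 9; 420 to 2864) in adults, with 5 of the 8 lower and 1 higher. The 8 young neuron markers went from 3614 ± 1809 to 416 ± 218 CPM, with 7 of 8 lower. The 8 oligodendrocyte progenitor markers, of cells that also divide in this tissue, went from 804 ± 500 CPM (309 to 1739) at P1 through 1368 ± 661 CPM at P4 to 484 ± 92.9 CPM (359 to 604) in adults, with 2 of 8 lower and 3 of 8 higher, counts close to the shares of all genes (21.2% lower, 23.1% higher); Pdgfra changed by -0.58 ± 0.45 (adjusted p = 0.309) and Cspg4 by 0.44 ± 0.49 (adjusted p = 0.492). The 8 oligodendrocyte and myelin markers went from 170 ± 65.9 to 1311 ± 664 CPM, with all 8 higher. The 9 neuron markers went from 2601 ± 1768 CPM (753 to 5270) to 4599 ± 2726 CPM (2397 to 10347), with 7 higher and 1 lower. Of 8 microglia markers 3 were higher and 0 lower, and of 8 endothelial and mural markers 2 were higher and 2 lower. The part of these cell types in the fall of the replication genes was not tested.

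**Figure D5:**
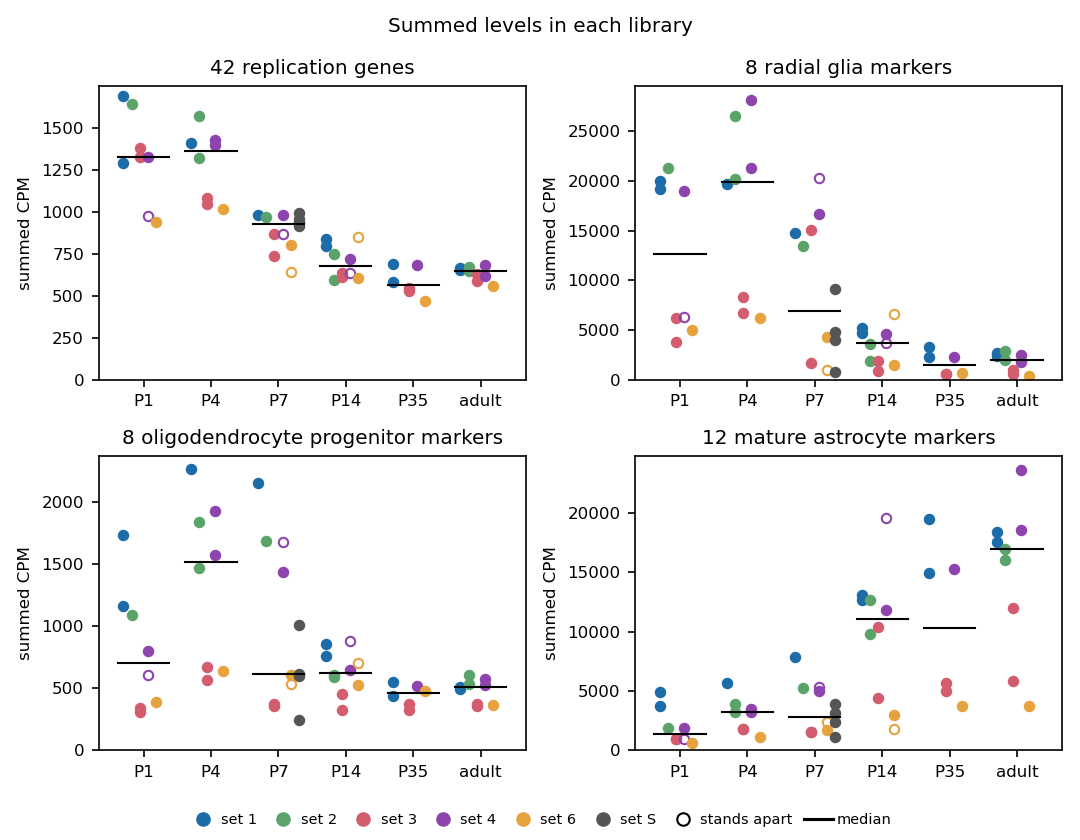
Summed CPM in each of the 53 libraries of the 42 replication genes and of 3 marker lists by age (colour: replicate set; open circles: the 5 libraries that stand apart; bars: medians). The sum of replication genes and that of radial glia markers fall from P4 to P14 while mature astrocyte markers rise.

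Sex made no called difference to these genes. In a model of the 12 groups of age and sex with the replicate block, 0 of the 42 differed between animals labelled female and male (0 in DESeq2 and voom, and 0 at an unadjusted p under 0.05 in all of them), where 0.0284% of all genes were called lower in females and 0% higher. Log2 differences ran from -0.35 to 0.72, the latter for Cdc6 with an SE of 0.45. The change from P1 to adult differed by sex in 0 of the 42 (0 in DESeq2 and voom), where 0% of all genes were called. At an unadjusted p under 0.05 edgeR had Cdc6 and Pcna less lowered and Gins3 more lowered in females. At that cutoff DESeq2 had 5 differences above 0 and 1 below, and voom 7 and 0. Of all 21118 genes edgeR had 305 above 0 and 736 below at that cutoff. With all libraries 12 of the 42 fitted differences were below 0, with a median of 0.56 beside 0.02 over all genes. P1 female 4, 1 of 4 P1 females, is the lowest P1 library for Cdc6 (0 CPM) and Pcna (39.8 CPM) and the highest for Gins3 (66.9 CPM). Without it 0 were called and Cdc6 alone had an unadjusted p under 0.05 (p = 0.0182), with Gins3 at p = 0.392 and Pcna at p = 0.0802 in edgeR's test; without all 5 doubted libraries 0 were called as well, and Cdc6, Mcm5 and Pif1 had an unadjusted p under 0.05. With all libraries the SE of the sex difference in the P1 to adult change was 1.63 for Cdc6, a gene low at every age. Small differences between the sexes were thus not detectable in Cdc6, and for genes of higher level the limit was not worked out. The smallest groups held 3 libraries. In 5 libraries the description letter differs from the sex named here, so their sex is in doubt. They are P7 female 10, P7 female 30, P7 female 40, P35 male 10 and adult male 60. This list is another than that of the 5 doubted libraries, though P7 female 40 is in both.

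The stretch of 250 bases before the start that RefSeq gives was available for 32 of the 42 genes (GRCm38.p6) and was searched on both strands for 4 spellings of the E2F type of site, TTTCCCGC, TTTCGCGC, TTTGCCGC and TTTGGCGC, where matches may overlap. At least 1 was found in 8 of the 32 (25.0%), namely Orc1, Cdc6, Mcm5, Mcm6, Mcm7, Gins3, Pola1 and Rfc3, and in 583 of 27025 genes with such a stretch (2.157%). Of the 32 genes 27 had fallen from P1 to adult, and the 8 were among these; Gins3 is the one that did not pass without P1 female 4. RefSeq and GENCODE M21 place some starts differently: only in Mcm5, Mcm6 and Pola1 do matches also lie before the GENCODE start, and in the other 5 they lie inside the GENCODE gene. These letters are a description of the sequence, not evidence of binding. Shown first are 4 genes that fell and hold a match, picked after the matches were seen, with each match in capitals. In Mcm6 (chr1:128359706-128359955, minus strand) matches began 110, 106 and 47 bases before the RefSeq start, the first pair overlapping; in Mcm5 (chr8:75109259-75109508, plus strand) 153 and 149 bases before it, likewise overlapping; in Cdc6 (chr11:98907901-98908150, plus strand) 138 bases (RefSeq's start is 350 bases inside the GENCODE gene) and in Rfc3 (chr5:151651209-151651458, minus strand) 10 bases before it (34 bases inside).
Mcm6: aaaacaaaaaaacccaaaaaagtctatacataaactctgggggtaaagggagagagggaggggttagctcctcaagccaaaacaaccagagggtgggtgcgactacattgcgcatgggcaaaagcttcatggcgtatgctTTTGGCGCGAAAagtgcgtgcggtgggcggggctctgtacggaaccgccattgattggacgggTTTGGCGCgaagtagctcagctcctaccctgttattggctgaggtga
Mcm5: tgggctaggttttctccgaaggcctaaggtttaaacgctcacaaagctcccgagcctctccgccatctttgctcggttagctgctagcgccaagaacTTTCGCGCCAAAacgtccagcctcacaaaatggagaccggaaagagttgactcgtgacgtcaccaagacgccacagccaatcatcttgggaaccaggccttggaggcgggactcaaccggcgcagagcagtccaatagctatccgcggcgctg
Cdc6: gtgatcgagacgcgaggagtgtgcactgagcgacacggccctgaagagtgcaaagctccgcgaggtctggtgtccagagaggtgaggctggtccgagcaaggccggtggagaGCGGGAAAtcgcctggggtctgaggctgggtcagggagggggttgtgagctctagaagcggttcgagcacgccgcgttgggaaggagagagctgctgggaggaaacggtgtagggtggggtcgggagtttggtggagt
Rfc3: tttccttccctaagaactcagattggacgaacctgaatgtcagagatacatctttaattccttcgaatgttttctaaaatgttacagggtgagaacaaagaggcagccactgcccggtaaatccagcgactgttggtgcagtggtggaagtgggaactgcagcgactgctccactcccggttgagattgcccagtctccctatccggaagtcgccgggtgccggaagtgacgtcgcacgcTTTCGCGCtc

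For comparison, 2 genes with large falls and no match to these letters follow, Chaf1b (chr16:93883651-93883900, plus strand) and Rrm2 (chr12:24708004-24708253, plus strand), with 2 that did not pass from P1 to adult and have none either, Orc6 (chr8:85299382-85299631, plus strand) and Rpa1 (chr11:75348384-75348633, minus strand). All sequences read 5′ to 3′ toward the gene.
Chaf1b: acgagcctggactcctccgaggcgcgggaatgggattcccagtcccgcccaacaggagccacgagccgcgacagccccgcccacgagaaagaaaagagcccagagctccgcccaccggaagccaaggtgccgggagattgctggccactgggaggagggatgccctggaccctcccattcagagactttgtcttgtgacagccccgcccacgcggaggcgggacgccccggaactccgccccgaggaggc
Rrm2: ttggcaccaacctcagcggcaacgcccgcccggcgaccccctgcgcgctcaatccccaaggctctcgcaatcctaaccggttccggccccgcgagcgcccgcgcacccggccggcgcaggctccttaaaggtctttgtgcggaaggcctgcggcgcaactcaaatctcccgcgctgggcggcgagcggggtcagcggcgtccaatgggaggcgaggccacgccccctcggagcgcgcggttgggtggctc
Orc6: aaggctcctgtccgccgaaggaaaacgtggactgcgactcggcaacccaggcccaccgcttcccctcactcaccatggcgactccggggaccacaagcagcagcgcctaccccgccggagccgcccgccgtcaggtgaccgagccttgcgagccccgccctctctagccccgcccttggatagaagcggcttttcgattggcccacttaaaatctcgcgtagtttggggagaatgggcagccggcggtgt
Rpa1: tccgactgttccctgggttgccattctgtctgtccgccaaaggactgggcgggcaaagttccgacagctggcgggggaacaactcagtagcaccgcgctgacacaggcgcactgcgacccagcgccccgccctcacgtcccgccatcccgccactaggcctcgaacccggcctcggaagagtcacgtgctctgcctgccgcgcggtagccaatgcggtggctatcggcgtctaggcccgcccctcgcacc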

How the data were processed

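The deposited table held raw counts per gene, not normalized, for 53 libraries of 57 labelled samples. In all, 4 animals, each of P7, had been sequenced in 2 runs, and each library used here is a separate animal. RNA was taken from the pull-down with oligo-dT and made into strand-specific libraries, per the labels' protocols. CASAVA, HISAT2, SAMtools, featureCounts and GRCm38.p5 are named in the submitters' processing notes, without versions; the strand setting of the counting is not given in the sources used here. Libraries were grouped by the age and sex in their labels.

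The quasi-likelihood test of edgeR 4.0.16 (R 4.3.3) was run on the counts after TMM scaling and filterByExpr by age, with robust fitting, with age and replicate set in 1 model of all 53 libraries. A second model of 12 groups of age and sex tested 21118 genes. P-values were Benjamini-Hochberg adjusted over all genes tested, with a threshold of 0.05. Set means used log2 CPM with a prior count of 2. DESeq2 1.42.0, voom in limma 3.58.1, other scalings, filters and left-out libraries were alternatives. Libraries of 1 set deviated together (mean correlation 0.376 within sets, 0.260 to 0.566 by set, against -0.0763 between sets), so the set numbers were taken to pair libraries. The test was checked on simulated counts.

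Members and lists were chosen with earlier results of these data known. Full statistics were given for the gene of smallest adjusted p in each of 10 roles, for genes that rose or did not pass, for the 6 largest falls, and, of the other genes of the pathway, for up to 8 with the largest change and for those that rose. Exon overlaps and lengths came from GENCODE M21 and promoters from RefSeq.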

Additional observations from a re-analysis of the deposited data

Results flagged for a closer look

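In 95 groups of 4 to 10 libraries, 13 values stood far from the nearest other library of their age for the width of the group. The cutoff gives about 1 in 20 groups by chance if values are normally distributed and groups independent. The groups share libraries and CPM were not checked for that distribution, so the 13 cannot be judged against this rate. P7, with 12 libraries, was not covered. P1 female 4 held 3 of them, each the highest of P1: Pole at 25.7 CPM, Chaf1b at 114 CPM and Rpa1 at 155 CPM. P14 male 6 held 2, each the highest of P14: Lig1 at 19.96 CPM and Chaf1b at 6.01 CPM. P35 female 6 was the lowest of P35 for Mcm7 at 5.62 CPM and the highest for Lig1 at 16.9 CPM. Adult female 4 was the highest adult for Prim2 at 15.4 CPM and for Pif1 at 1.04 CPM, and the lowest for Rfc1 at 36.3 CPM. P4 female 4 was the lowest of P4 for Mcm8 at 0.845 CPM. Adult male 60 was the lowest adult for Rpa1 at 36.9 CPM, and P35 male 3 the lowest of P35 for Rfc1 at 51.9 CPM.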

How the results depend on the processing

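The count of genes that fell from P1 to adult was within 1.5 times of 35 under every alternative run except libraries labelled female alone, where it was 10 (25 without P1 female 4, chosen after seeing the data). The counts over single intervals moved more, and the cause was not tested. No share of all genes stands beside the counts in this section. That share moved as well: over P7 to P14, 3.15% of all genes fell with all libraries and 11.1% without the 5 doubted libraries. The counts here alone thus do not show a change particular to the replication genes. Without the replicate block, which pairs libraries of 1 set, 0 genes fell from P4 to P7, 9 from P1 to P7, 15 from P7 to P14 and 0 from P14 to adult; with 12 groups and the replicate block these counts were 2, 6, 3 and 1. For P4 to P7, DESeq2 gave 4, voom 2, a mean of at least 1 CPM 2 and leaving out set S 0; for P14 to P35 DESeq2 gave 1. Females alone gave 0 for P4 to P7, 0 for P1 to P7, 1 for P7 to P14, 11 for P1 to P14, 11 for P1 to P35 and 0 for P14 to adult, and without P1 female 4 they gave 0 for P4 to P7, 1 for P1 to P7, 13 for P7 to P14, 21 for P1 to P35 and 0 for P14 to adult. Males alone gave 0 for P4 to P7, 6 for P1 to P7, 0 for P7 to P14 and 1 for P14 to adult. Without the 3 libraries of few genes the counts were 1 for P1 to P4, 13 for P4 to P7, 22 for P1 to P7, 13 for P7 to P14, 4 for P14 to P35 and 8 for P14 to adult. The next 3 settings were chosen after seeing the data. Without P7 male 6 and P14 male 6 there were 0 for P4 to P7, 8 for P1 to P7, 17 for P7 to P14 and 1 for P14 to adult. Without these and the 3 of few genes there were 1 for P1 to P4, 6 for P4 to P7, 28 for P7 to P14, 2 for P14 to P35 and 5 for P14 to adult. Without 5 libraries with another description letter than their sex there were 0 for P4 to P7, 9 for P1 to P7, 3 for P7 to P14 and 1 for P14 to adult. Leaving out each library in turn gave 34 to 35 for P1 to adult, 0 to 1 for P1 to P4, 0 to 10 for P4 to P7, 8 to 19 for P1 to P7, 3 to 15 for P7 to P14, 0 to 2 for P14 to P35, 0 for P35 to adult, 27 to 35 for P1 to P14, 29 to 35 for P1 to P35, 1 to 5 for P14 to adult and 0 for the difference between weeks. It was not run for sex, whose counts were 0 in the alternatives run, those without doubted libraries included,, and the values within sets have no test. The sign of the P1 to adult change turned for genes that had not passed: Mcm8 with voom (0.17), in females (0.77) and in females without P1 female 4 (0.25), Pold2 in females (0.075), and the change of Rpa1 P1 to adult without the replicate block (-0.079), without set S (-0.002704) and in females (-0.19). Genes near 1 CPM, such as Fen1, Cdc6 and Orc1, rest on few counts per library.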
